A study of Mus musculus with 4 samples.

Results

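The genes of the semaphorins, of their plexin and neuropilin receptors and of the related plexin domain-containing proteins were followed in conventional dendritic cells of type 2 (cDC2) from mouse spleen. They were taken by gene symbol alone, as every gene named Sema3 to Sema7, Plxna to Plxnd, Plxdc, Nrp1 or Nrp2 to which a probe set was annotated alone, and 33 of 19938 such genes on the array were members. They comprised 20 semaphorins, 2 neuropilins, 9 plexins and 2 plexin domain-containing genes, measured by 35 probe sets, and the brightest probe set stood for a gene. A group of 2 WT arrays came from splenic cDC2 of Zbtb46-GFP chimeric mice and a group of 2 arrays from splenic cDC2 of Id2 KO Zbtb46-GFP chimeric mice. Both groups thus carry the Zbtb46-GFP reporter, a green fluorescent marker of cells in which Zbtb46, a transcription factor gene of conventional dendritic cells, is active. The labels give neither the age of the mice, nor the cells left from the host of the chimeras, nor whether replicates were separate or pooled mice, so the spread behind the p-values is that of these samples and can be technical. Bone marrow is named beside the spleen in the text on the design.

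Semaphorins are secreted, membrane-spanning or lipid-anchored ligands first known from the guidance of growing axons, and plexins are their receptors, which act inside the cell on small GTPases and so on adhesion and the cytoskeleton. Class 3 semaphorins mostly need a neuropilin as a co-receptor, while classes 4 to 7 mostly bind plexins directly. In the immune system members of these families act in the contact between dendritic cells and T cells and in the passage of dendritic cells into lymphatic vessels. Id2, the gene named in the knockout, encodes a partner of E proteins that prevents their binding to E-boxes, the DNA letters CANNTG.

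Of the 33 genes, Sema7a and Nrp2 were higher in the Id2 KO-labelled arrays, by 2.16-fold and 1.57-fold, and no member passed the test in the lower direction. Sex and genotype cannot be told apart for these or any other differences, as the values of Xist and Kdm5d given below show. The plexin genes Plxnc1, Plxnd1 and Plxnb2 and the ligand gene Sema4d were well above the background level in all 4 arrays and differed by at most 0.20 on the log2 scale. The share of members that passed the test, 2 of 21 tested (9.52%), was close to that of all tested genes, 8.04%.

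The stretches of 250 bases before the start sites of the genes that passed, Sema7a and Nrp2, are shown because the knockout concerns a regulator of E-box binding. They are RefSeq sequences of build GRCm38.p6 on the plus strand, chr9:57939862-57940111 for Sema7a and chr1:62703067-62703316 for Nrp2, read 5′ to 3′ up to the base before the start site that the table gives, and capitals mark a match to CANNTG, which reads the same on both strands.
Sema7a: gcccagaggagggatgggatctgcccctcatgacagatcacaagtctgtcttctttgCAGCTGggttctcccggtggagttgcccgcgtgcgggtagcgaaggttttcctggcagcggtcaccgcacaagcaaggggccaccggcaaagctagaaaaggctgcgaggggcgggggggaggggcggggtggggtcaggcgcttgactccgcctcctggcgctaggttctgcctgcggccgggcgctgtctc
Nrp2: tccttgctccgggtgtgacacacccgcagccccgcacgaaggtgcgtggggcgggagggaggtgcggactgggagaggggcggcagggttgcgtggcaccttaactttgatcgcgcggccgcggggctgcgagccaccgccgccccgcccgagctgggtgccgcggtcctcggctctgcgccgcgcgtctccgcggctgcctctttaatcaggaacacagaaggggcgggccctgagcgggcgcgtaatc
The Sema7a stretch holds 1 match, CAGCTG, whose first letter lies 193 bases before the start site, and the Nrp2 stretch holds none. Among 32851 such stretches of mouse genes, 66.2% hold CANNTG and 13.0% hold CAGCTG. Among the 37 stretches listed for 26 of the 33 members, 19 hold CANNTG (51.4%) and 6 hold CAGCTG. The RefSeq span of Sema7a begins farther upstream than this start site, so the stretch can lie within a longer transcript model. A match describes these letters and no binding was measured.

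To say which members cDC2 express, each array's level was set against 1251 genes of olfactory, vomeronasal and trace amine receptors and keratin-associated proteins, which serve other tissues. A member was called expressed in a group when both arrays lay above the 95th percentile of those genes, a log2 intensity of 6.80 to 6.98 on the 4 arrays. By this rule 17 of 33 members (51.5%) were expressed in WT and 19 (57.6%) in the Id2 KO-labelled arrays, against 55.0% and 56.0% of all genes. Probe sets differ in brightness for reasons other than the amount of RNA, so the call is a description and levels of different genes were not ranked. At the 99th percentile, 10 members were left, namely Sema3f, Sema4a, Sema4b, Sema4d, Sema7a, Nrp1, Plxnb2, Plxnc1, Plxnd1 and Plxdc1. Between the 95th and the 99th percentile lay Sema3b, Sema5b, Sema6b, Sema6c, Sema6d, Nrp2, Plxna1, Plxna3 and Plxnb1.

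**Figure D1:**
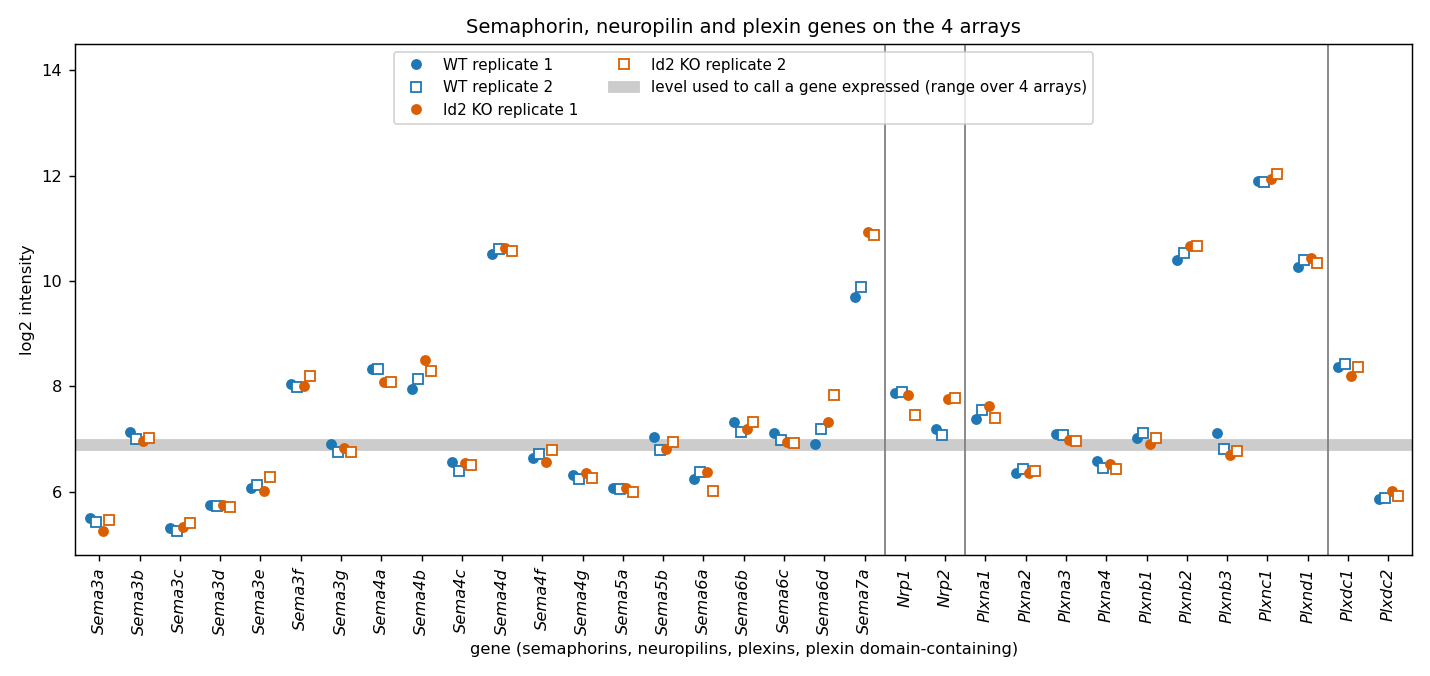
The vertical axis gives the log2 intensity of each of the 33 genes on the 4 arrays, with WT in blue, Id2 KO-labelled arrays in orange, replicate 1 as filled circles and replicate 2 as open squares. The grey band is the range of the level for calling a gene expressed, 6.80 to 6.98, and the orange symbols of Sema7a and Nrp2 lie clear of the blue ones.

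The 14 members that were expressed in neither group were Sema3a, Sema3c, Sema3d, Sema3e, Sema3g, Sema4c, Sema4f, Sema4g, Sema5a, Sema6a, Plxna2, Plxna4, Plxnb3 and Plxdc2. They include Sema3a, the classic ligand of Nrp1, and Sema3e, which binds Plxnd1 without a neuropilin. Sema3a, Sema3c, Sema3d and Sema3e all lie on chromosome 5, and each of the 4 stayed below the level on every array. Sema3b and Sema3f, both on chromosome 9, were above it on every array, Sema3b by as little as 0.13. The remaining class 3 gene, Sema3g on chromosome 14, was near the level, at 6.92 and 6.76 in WT and at 6.82 and 6.75 in the other group. A link of expression to chromosome was not tested. Of the 14, Sema3g and Plxnb3 lay above the intensity filter of the test (a mean log2 intensity of 6.77) and the other 12 below it. The differences of those 12 ran from -0.11 to 0.09 on the log2 scale without a test, and RNA at such levels could not be told from background on these arrays.

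Sema7a, a semaphorin held in the membrane by a lipid anchor, had the largest difference of the members. Its log2 intensity was 9.70 and 9.88 in WT replicates 1 and 2 and 10.93 and 10.87 in Id2 KO replicates 1 and 2. Both Id2 KO-labelled arrays were thus higher than both WT arrays, with a gap far wider than the spread within either group. The mean rose from 9.79 ± 0.13 to 10.90 ± 0.04 (SD, n = 2 each), a difference of 1.11 (95% interval 0.90 to 1.32; limma, adjusted p = 1.58e-04). Of the 11963 tested genes, 1.20% had a larger difference in either direction. With 1 array left out in turn the difference stayed between 1.02 and 1.20 and passed each time, but such a fit has a group of 1 array, which is assumed to vary like the other group. This holds for every value below without 1 array.

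Sema7a binds plexin C1 and integrins with the beta chain Itgb1. The receptor gene Plxnc1 had log2 intensities of 11.90 and 11.88 in WT and 11.94 and 12.04 in the Id2 KO-labelled arrays. Its groups did not overlap, yet the difference of 0.10 (95% interval -0.09 to 0.28) did not pass (limma, adjusted p = 0.579). Itgb1, a gene of the partner list described below, rose from 8.62 and 8.81 to 9.25 and 9.26 (1.45-fold; limma, adjusted p = 0.00685), and its call was lost without WT replicate 1 (0.44, adjusted p = 0.0762). Itga1, the alpha chain described for this contact, was below the level in all 4 arrays, between 5.74 and 6.21.

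Nrp2, the co-receptor of Sema3f and of VEGF-C, which in human dendritic cells carries polysialic acid and takes part in migration, was the other member that passed. Its log2 intensity was 7.19 and 7.08 in WT and 7.77 and 7.79 in the Id2 KO-labelled arrays, so the groups were apart. The mean rose from 7.13 ± 0.08 to 7.78 ± 0.01 (SD, n = 2 each), a difference of 0.65 (95% interval 0.46 to 0.83; limma, adjusted p = 0.00147). The WT arrays lay only 0.21 and 0.23 above their own levels for calling a gene expressed, so the size of the fold is not settled. With 1 array left out the difference was 0.59 to 0.70 and passed, on the same assumption. With genes above the 60th percentile alone, Nrp2 was too dim to be tested.

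Nrp1, the co-receptor of Sema3a and of VEGF-A, did not pass the test. Its log2 intensity was 7.88 and 7.90 in WT and 7.83 and 7.45 in the Id2 KO-labelled arrays. The difference of -0.25 (95% interval -0.52 to 0.02) did not pass (limma, adjusted p = 0.288) and came mostly from Id2 KO replicate 2. Without Id2 KO replicate 1 it was -0.44 and passed (adjusted p = 0.0271), and without Id2 KO replicate 2 it was -0.06 (adjusted p = 0.798). The difference between Nrp1 and Nrp2 in their response was not tested. Vegfc, a ligand of Nrp2, was tested and differed by 0.02 (limma, adjusted p = 0.936). It was called expressed in neither group, at 6.82 and 6.89 in WT and at 6.76 and 6.99 in the Id2 KO-labelled arrays.

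**Figure D2:**
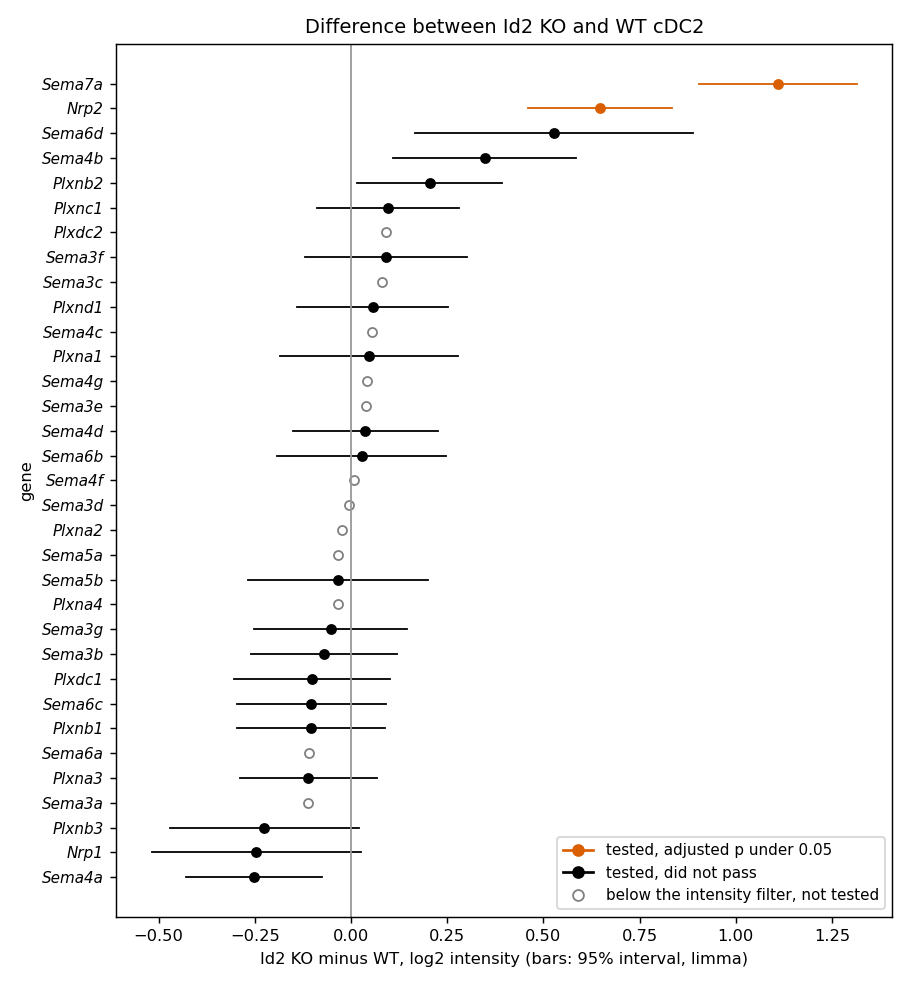
Each row is a member and the horizontal axis is its log2 intensity in the Id2 KO-labelled arrays minus that in WT, with bars for the 95% interval from limma. The intervals of Sema7a (0.90 to 1.32) and Nrp2 (0.46 to 0.83) stand at the top, and the 12 open circles are members below the intensity filter, which were not tested.

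The class 4 semaphorins are membrane-spanning ligands, and 3 of 6 were expressed, Sema4a, Sema4b and Sema4d. None of the 3 passed limma's test. An unadjusted p under 0.05 was found for 2, Sema4a lower and Sema4b higher, and for 20.7% of all tested genes. Sema4a, which dendritic cells use to stimulate T cells, was at 8.33 and 8.34 in WT and at 8.08 and 8.08 in the Id2 KO-labelled arrays. Replicates lay within 0.01 of each other, and the difference of -0.25 (95% interval -0.43 to -0.08) did not pass (limma, adjusted p = 0.0932). It passed with renewed quantile normalization, at -0.30 (adjusted p = 0.0410).

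Sema4b was at 7.95 and 8.14 in WT and at 8.51 and 8.29 in the Id2 KO-labelled arrays. The groups did not overlap, and the difference of 0.35 (95% interval 0.11 to 0.58) did not pass (limma, adjusted p = 0.0869), except without Id2 KO replicate 2 (0.46, adjusted p = 0.0309). Sema4d, known as CD100, a ligand of plexin B1, plexin B2 and CD72 on lymphocytes and dendritic cells, was at 10.51 and 10.62 in WT and at 10.62 and 10.58 in the other group. These groups overlapped, and the difference was 0.04 (95% interval -0.15 to 0.23; limma, adjusted p = 0.855). A dimmer Sema4d probe set differed by -0.10. Cd72, a Sema4d receptor outside the plexins, was at 9.55 and 9.63 against 9.13 and 9.37, a difference of -0.34 that did not pass (limma, adjusted p = 0.0743).

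Among the class 6 semaphorins, membrane-spanning ligands of plexin A receptors, Sema6d had the largest difference. Its log2 intensity was 6.91 and 7.19 in WT and 7.32 and 7.83 in the Id2 KO-labelled arrays, so it was called expressed in the latter group alone, with WT replicate 1 just below its level. The groups were apart but the replicates spread widely, and the difference of 0.53 (95% interval 0.17 to 0.89) did not pass (limma, adjusted p = 0.0876). It was 0.78 and passed without Id2 KO replicate 1 (adjusted p = 0.00384), and 0.27 without Id2 KO replicate 2 (adjusted p = 0.241). It also passed with arrays centred on their medians (adjusted p = 0.0310) and with the replicate number as a block (adjusted p = 0.0260).

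Sema6d binds plexin A1, which in dendritic cells works with Trem2 and the adaptor Tyrobp and in other tissues with Kdr or Ptk7. Plxna1 was at 7.39 and 7.55 in WT and at 7.63 and 7.41 in the Id2 KO-labelled arrays, with overlapping groups and a difference of 0.05 (95% interval -0.18 to 0.28; limma, adjusted p = 0.850). Trem2 differed by 0.02 (95% interval -0.19 to 0.22) and Tyrobp by -0.15 (-0.33 to 0.02), and neither passed. Sema6b and Sema6c, the other expressed genes of class 6, differed by 0.03 (95% interval -0.19 to 0.25) and -0.10 (-0.30 to 0.09).

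Sema5b, of the class with thrombospondin repeats, was close to the level for calling a gene expressed in both groups, at 7.03 and 6.79 in WT and at 6.80 and 6.95 in the Id2 KO-labelled arrays, and differed by -0.03. On both arrays it passed that level in the Id2 KO-labelled group alone. The expressed genes of the secreted class 3 were Sema3b and Sema3f. Sema3f, a ligand of Nrp2, had linear intensities of 263 and 253 in WT and 256 and 295 in the other group, which overlap. Its log2 difference of 0.09 (95% interval -0.12 to 0.30) and that of Sema3b, -0.07 (-0.26 to 0.12), did not pass.

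Of the 9 plexin genes, 6 were expressed in both groups and 7 were tested. By limma's test 0 of the 7 passed, against 8.04% of all tested genes. An unadjusted p under 0.05 was found for 1, Plxnb2, and for 20.7% of all tested genes. Plxnb2, a receptor of class 4 semaphorins, was at 10.41 and 10.52 in WT and at 10.67 and 10.67 in the Id2 KO-labelled arrays, a difference of 0.20 (95% interval 0.02 to 0.39; limma, adjusted p = 0.204). Plxnd1, the receptor of Sema3e that Sema4a can also bind, was at 10.26 and 10.40 against 10.43 and 10.35 and differed by 0.06 (-0.14 to 0.25). Plxnb1, the Sema4d receptor, was just above the level in all 4 arrays and differed by -0.10 (-0.30 to 0.09).

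Plxna3 and Plxnb3 are X-linked. Xist, which silences 1 X chromosome in females, had a log2 intensity of 11.96 on both WT arrays, against 6.67 and 6.68 on the others. The Y-linked gene Kdm5d was at 5.72 and 5.53 in WT and at 8.08 and 8.50 on the others. A difference of sex and one of genotype thus cannot be told apart for any gene here, Sema7a, Nrp2 and the partner genes included. Plxna3 was at 7.09 and 7.08 against 6.99 and 6.96, and its difference of -0.11 did not pass (limma, adjusted p = 0.488). Plxnb3 was above the level for calling a gene expressed on WT replicate 1 alone and differed by -0.23 (limma, adjusted p = 0.283). Plxdc1, which shares a plexin-like domain but belongs to another family, was expressed at 8.36 and 8.43 in WT and 8.21 and 8.38 in the other group and differed by -0.10 (95% interval -0.30 to 0.10).

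**Figure D3:**
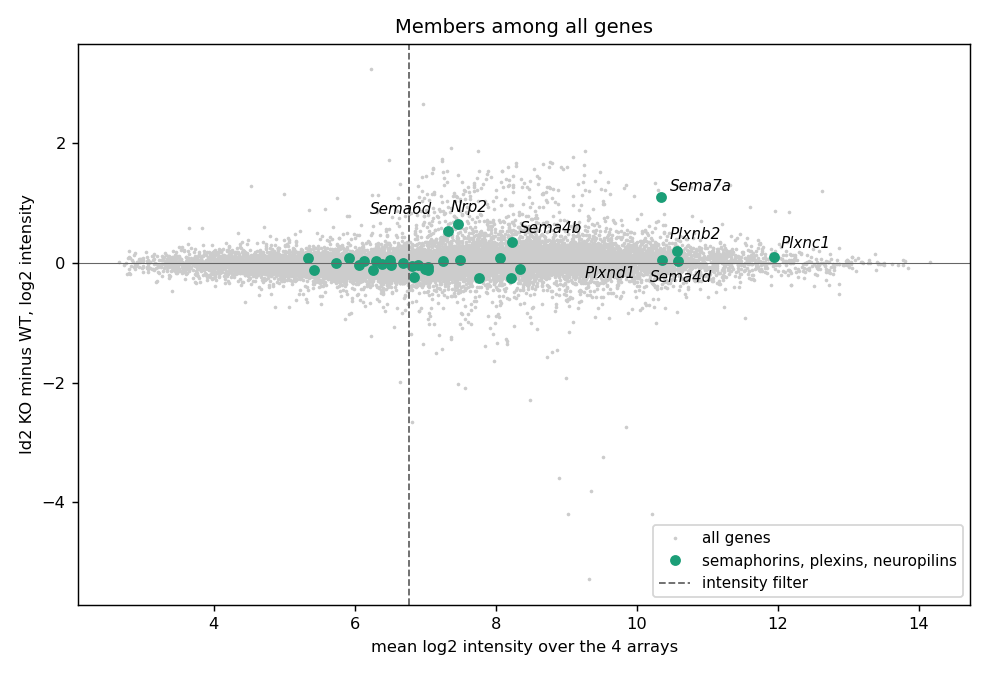
Each grey point is a gene, with its mean log2 intensity over the 4 arrays on the horizontal axis and Id2 KO minus WT on the vertical axis, and green points are the 33 members. Most members lie near 0, 25 of them within 0.2, and Sema7a at 1.11 is the highest.

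The median difference of the 21 tested members was 0.03, against 0.01 over all tested genes. Groups did not overlap for 12 of the 21 (57.1%), against 50.7% of all tested genes, so separation of 2 arrays from 2 is common here. In the higher direction 5.53% of all tested genes passed and in the lower direction 2.52%. In both directions 6 members had an unadjusted p under 0.05, namely Sema7a, Nrp2, Sema4a, Sema4b, Sema6d and Plxnb2, or 6 of 21 against 20.7% of all tested genes. The number of members called was 4 without Id2 KO replicate 1, where Nrp1 and Sema6d joined.

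A list of 63 other genes of the pathway held co-receptors, further ligands of the co-receptors and proteins that signal below plexins. Of 60 on the array, 44 were tested, 4 rose, 2 fell and 38 did not pass (13.6% passed, against 8.04% of all tested genes), with a median difference of 0.01. Fyn, a Src-family kinase that acts below plexin A receptors, rose from 9.08 and 9.23 to 9.94 and 9.89 (1.69-fold, 95% interval on the log2 scale 0.56 to 0.95; limma, adjusted p = 7.89e-04). Rras2, of the R-Ras group of GTPases on which plexins act, rose from 9.83 and 9.87 to 10.42 and 10.35 (1.46-fold; limma, adjusted p = 0.00341). Fyn and Rras2 were higher in each Id2 KO-labelled array than in either WT array. No other tested GTPase gene of the list passed, though Rhoa, described below, was higher by 0.32. Rras differed by -0.10 (limma, adjusted p = 0.528), Mras by -0.17 (0.278), Rap1a by 0.13 (0.435) and Rap1b by -0.13 (0.445), and none passed.

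Vegfa, the growth factor that binds Nrp1 and Kdr, fell from 8.68 and 8.79 to 8.12 and 8.02 (1.59-fold lower, 95% interval on the log2 scale -0.86 to -0.47; limma, adjusted p = 0.00153). Kdr, its receptor, rose from 7.09 and 6.77 to 7.52 and 7.50 (1.49-fold; limma, adjusted p = 0.0124) and was below the level for calling a gene expressed on WT replicate 2, so the size of the fold is not settled. Its call was lost without WT replicate 2 (0.42, adjusted p = 0.0705). Among the endothelial markers, Pecam1 was at 9.31 and 9.49 in WT and at 9.17 and 8.94 in the other group, a difference of -0.34 that did not pass (limma, adjusted p = 0.0949). Cdh5 differed by 0.44 without passing (limma, adjusted p = 0.132), and Tek was below the level on all 4 arrays. Of the 8 endothelial and stromal markers 3 were expressed in WT and 5 in the other group, Tek, Pdgfra and Pdgfrb in neither. The 8 summed to a linear intensity of 1633 and 1642 in WT against 1618 and 1518. Pecam1 alone gave 633 and 721 of that sum in WT and 578 and 491 in the other group, so the sum leans on its brightest gene. The part of endothelial cells in the Kdr signal was not tested.

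Mical2, of a family of enzymes that oxidise actin, fell by 0.36 (limma, adjusted p = 0.0419). The call was lost without WT replicate 1 (adjusted p = 0.298), without WT replicate 2 (0.0908), without Id2 KO replicate 1 (0.172), with the replicate block (0.109) and without the intensity filter (0.0776). The GTPase gene Rhoa, read from the brighter of its 2 probe sets, differed by 0.32 (limma, adjusted p = 0.0729). Rac1 differed by 0.05 (adjusted p = 0.791), and neither passed. Vegfa, Fyn and Rras2 passed with each array left out, on the assumption given for Sema7a.

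**Figure D4:**
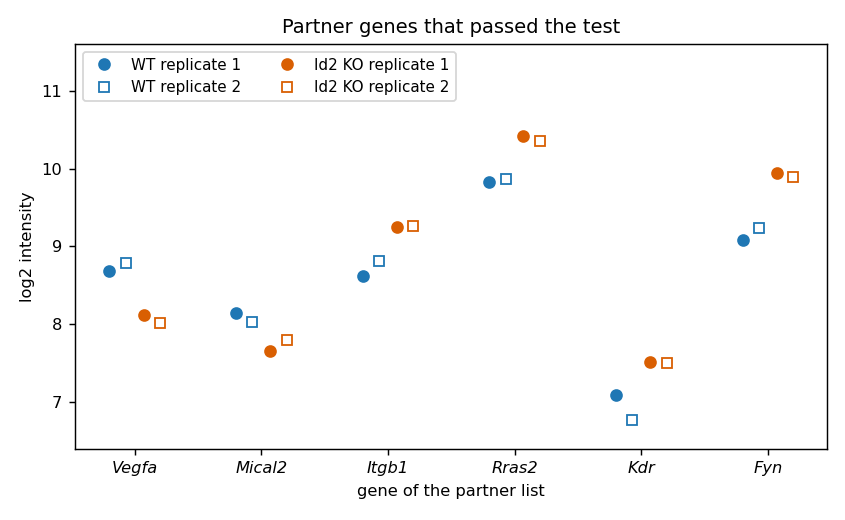
The vertical axis gives the log2 intensity on the 4 arrays of the 6 partner genes that passed, with WT in blue, Id2 KO-labelled arrays in orange, replicate 1 as filled circles and replicate 2 as open squares. Vegfa and Mical2 are lower in both orange symbols and the other 4 are higher.

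The identity of the cells bears on these values. Id2 was at 9.14 and 9.08 in WT and at 8.71 and 8.97 in the Id2 KO-labelled arrays, a difference of -0.27 that did not pass (limma, adjusted p = 0.172), except without Id2 KO replicate 2 (-0.40, adjusted p = 0.0343). Which stretch of Id2 the knockout removes is not stated, so its single probe set may check nothing and each direction rests on the labels. Of 9 markers of conventional dendritic cells all were expressed in WT and 8 in the other group, Zbtb46 having fallen from 7.57 and 7.55 to 6.49 and 6.59. Of 9 cDC2 markers 7 were expressed in both groups (Mgl2 and Clec10a in neither), and of 7 tested 1 rose, 2 fell and 4 did not pass. Itgam fell from 10.77 and 10.78 to 10.06 and 9.49, and Cd4 from 10.30 and 10.28 to 9.25 and 9.65. Esam rose from 7.98 and 8.28 to 8.64 and 8.69. By limma's test 6 of the 7 had an unadjusted p under 0.05, against 20.7% of all tested genes. For this list and those below, 5.53% of all tested genes rose and 2.52% fell after adjustment. The 9 cDC2 markers summed to a linear intensity of 15492 and 15084 in WT against 11716 and 12176. The part of this lower sum in the differences of the members was not tested.

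Markers of other cells moved with the groups. The sums given are of linear intensity over all genes of a list on the array, whether or not they passed. The brightest probe sets weigh most in them, so a sum can hide changes of dimmer genes. All 12 neutrophil markers fell, and the list summed to 17984 and 18664 in WT and to 1563 and 2476 in the Id2 KO-labelled arrays. All 10 tested B cell markers rose, and the list of 11 on the array summed to 1526 and 1529 against 2988 and 3342. All 9 cell cycle genes rose, with sums of 3492 and 3632 against 10700 and 8528. Of 10 tested monocyte and macrophage markers 8 fell, and the 13 on the array summed to 5902 and 6394 against 4417 and 4697. Of 8 markers of plasmacytoid dendritic cells 4 rose, namely Siglech, Ly6d, Pacsin1 and Spib, and all 8 summed to 2557 and 2503 against 3061 and 2864. The other 4, Bst2, Ccr9, Cox6a2 and Tcf4, did not pass, with differences from -0.16 to 0.04. In the lists of cDC1, of T and NK cells and of erythroid cells and platelets 1 gene each fell, and in that of endothelial and stromal cells Kdr alone passed. Of 8 cDC1 markers 4 were expressed in both groups and 4, namely Xcr1, Clec9a, Cadm1 and Itgae, in neither. The 8 summed to 2748 and 2780 against 2612 and 2756. Batf3 alone gave 1625 and 1634 of that sum against 1614 and 1766, while Tlr3, the cDC1 gene that fell, differed by -0.73. Of 10 T and NK cell markers on the array 5 were expressed in both groups and 5, namely Cd28, Ncr1, Klrb1c, Gzma and Eomes, in neither, and the 10 summed to 1762 and 1770 against 1684 and 1668. The part of these cells in the differences of Sema7a, Nrp2 and the partner genes was not tested, and more RNA per cell and more cells of a kind cannot be told apart in sorted bulk samples.

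**Figure D5:**
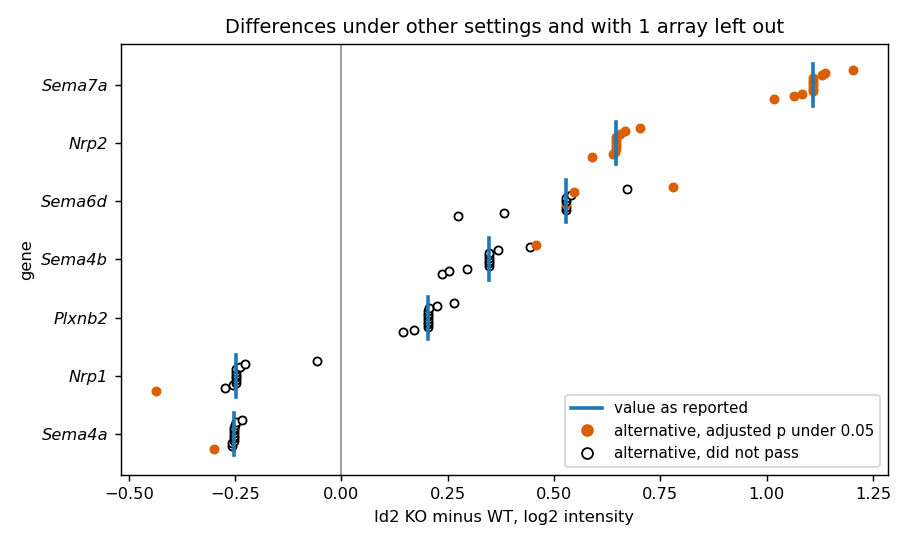
For 7 members, the blue bar is the difference between Id2 KO and WT in log2 intensity as reported and each circle is its value under 1 other setting or with 1 array left out, filled where the adjusted p was under 0.05. Sema7a stays between 1.02 and 1.20 and Nrp2 between 0.59 and 0.70, while Sema6d spreads from 0.27 to 0.78.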

How the data were processed

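Per the labels' protocols, cDC2 were sorted by flow cytometry after lysis of red blood cells, and RNA was turned into labelled cDNA by a NuGen Ovation PicoSL kit, whose amplification of small RNA amounts can distort levels. The authors deposited linear intensity values, 1 for each probe set in each sample. Affymetrix Expression Console and RMA are named in the submitters' processing notes. RMA removes background and equalises the arrays, so a change in total RNA per cell is largely lost. No scanner files or detection calls were used here. Array medians of the intensity were 128 to 134, and precision is limited by having 2 arrays in a group. The log2 of each intensity was taken without a pseudocount. Of 28853 probe sets 21789 had 1 gene symbol in the platform annotation, and the brightest of a gene was used. The 2 Sema6b probe sets hold identical values.

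The 11963 genes whose mean exceeded the 40th percentile (log2 6.77) entered lmFit and eBayes of limma 3.58.1, run in R 4.3.3, as Id2 KO minus WT, two-sided, with Benjamini-Hochberg adjustment over all tested genes and a threshold of 0.05. Intervals are 95% intervals of that fit, not adjusted. All members were named. Of the partner list those past the threshold were named, among them the 4 with the largest difference. Direct binding partners of members and further GTPase genes were also named, after their values were seen. The members, lists and tests were chosen with earlier results of these data known. The procedure was tested on simulated data, where 8.5% of 1.25-fold changes and 84% of 1.5-fold changes were recovered. Genes that differed by less than 1.25-fold without passing are thus not shown to be unchanged. Alternatives covered the filter, probe sets, scaling, moderation, replicate block, sex-linked genes and each array left out. Deviations of same-numbered arrays from their group means correlated at -0.14 over the tested genes, so the numbers were not taken as pairs.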

Additional observations from a re-analysis of the deposited data

How the results depend on the processing

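A fit with 1 array left out has a group of 1 array, assumed to vary like the other group. Sema7a kept its call in all 12 alternatives and Nrp2 in all 11 that tested it. Of 239 comparisons of tested members with an alternative, 233 stayed on the same side of the threshold, 6 passed in the alternative alone, and none lost a call or changed sign with a call. The members changed numbered 2, and 1 with genes above the 60th percentile, where Nrp2 was not tested, 3 with the replicate block, and 2 to 4 with 1 array left out. All genes changed numbered 962, 684 with the replicate block and 441 to 1159 with 1 array left out. Leaving out WT replicate 1 gave 441 and leaving out WT replicate 2 gave 621, and the cause was not tested. The partner list held 6, then 5 with the replicate block and 4 to 8 with 1 array left out. Pairing the numbers crosswise, added after the data were seen, gave 1380 genes, 3 members and 9 partners. Members expressed numbered 19 and 10 at the 99th percentile of the tissue-restricted genes, a stricter level, and 19 to 22 under the other settings. Among the tested members, Id2 and the 6 partner genes that passed, the block moved the calls of Sema6d and Mical2 alone.

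A member at or near background has no measured level below it. With 2 arrays per group, small differences such as those of Plxnb2 or Sema4a are not settled.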
